A study of Mus musculus with 18 samples.

Results

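Long intergenic noncoding RNAs (lincRNAs) are transcripts that lie between protein-coding genes and encode no known protein. The genes described here are the expressed lincRNAs of alphaTC1 cells, a mouse line of glucagon-producing pancreatic alpha cells. They are the genes annotated as lincRNA whose counts averaged at least 5 CPM (counts scaled to a common library total) over all 18 libraries, without the snoRNA host genes named Snhg, Gas5 and Zfas1. This gave 111 genes of 55487 in the tables, out of 5629 lincRNA genes, of which 3462 had at least 1 count. The members were chosen by their mean level over the libraries, so the levels are given as a description. At the edge of the rule, Gm42595 (5.23 CPM), Gm20342 (5.12 CPM) and 4932422M17Rik (5.05 CPM) were just inside, and Epb41l4aos (4.90 CPM), Gm48795 (4.81 CPM) and Gm17354 (4.79 CPM) just outside.

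The study depleted Smndc1, a splicing factor, with an shRNA and asked what changes in alpha cells and in those that switch on insulin. In the first experiment, cells carried the Smndc1 shRNA (shSmndc1, 3 libraries) or an empty vector (EV, 3 libraries), and RNA was taken 5 days after transduction. In the second, all cells also carried mCherry under the rat insulin promoter (RIP). Cells with the shRNA were sorted as reporter-positive (shSmndc1_RIP_pos, 4 libraries) or reporter-negative (shSmndc1_RIP_neg, 4 libraries), and cells with the empty vector and the reporter formed the control (EV_RIP, 4 libraries), with no day given. Nothing in the labels says that the replicates are separate cultures, or that the EV_RIP cells were sorted, and the data come from 1 cell line and 1 shRNA, so each p-value speaks of library-to-library spread, part of which may be technical.

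LincRNAs act mostly as RNA, and many stay in the nucleus. Some build nuclear bodies, as Neat1 does for paraspeckles, or reside in them, as Malat1 does in nuclear speckles, where splicing factors are stored. Others bind and titrate proteins or microRNAs, or are made at enhancers and promoters of a neighbouring gene. Most are spliced by the same machinery as messenger RNA, to which Smndc1 belongs.

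The libraries held 8084574 to 103048766 counts, with the lowest total in shSmndc1_RIP_neg replicate 3, and each of the 111 lincRNAs had at least 10 counts in every library. Smndc1 had 10.4, 9.52 and 10.5 CPM in shSmndc1 cells, against 41.9, 40.2 and 35.1 CPM in EV cells. In the sorted experiment it had 16.6, 22.4, 16.0 and 25.2 CPM in shSmndc1_RIP_pos cells and 23.9, 43.4, 36.3 and 44.6 CPM in shSmndc1_RIP_neg cells, against 37.6, 54.9, 39.3 and 46.3 CPM in EV_RIP cells. The libraries labelled shSmndc1_RIP_neg thus overlapped EV_RIP in the targeted gene (log2 fold change -0.27 ± 0.20 SE, edgeR adjusted p = 0.378), which bears on every comparison with them. Of the alpha cell markers, Gcg averaged 5114 to 15987 CPM over the groups and Pcsk2, Irx2 and Slc7a2 were detected, whereas Gc was at 0 CPM. Rn7sk, an RNA with no poly(A) tail, had 4.53, 18.6, 161 and 45.4 CPM in shSmndc1_RIP_neg replicates 1 to 4, against 2.44 to 14.2 CPM in all other libraries.

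Most of these lincRNAs have no assigned function: 91 of 111 carry a predicted-gene or Rik symbol. In the GENCODE annotation of GRCm38, 110 could be looked up, of which 17 have a single exon and 93 have several. Their exonic length had a median of 2708.5 bases, between 168 bases for Bc1 and 20771 bases for Neat1. For 29 of them, over 10% of the exonic bases lie in another gene as well, in 27 cases on the other strand. The strand setting of the authors' counting is not given in the sources used here, so reads of such partners may not be told apart. A coding gene expressed at 1 CPM or more lies within 100 kb of 93 members, and 15 start within 1 kb of a coding gene on the other strand, among them Gm20554, 256 bases from the start of Irx2, which encodes an alpha cell transcription factor.

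Together the 111 lincRNAs held between 0.341% and 0.451% of all counts in a library. Levels averaged at least 10 CPM for 68 members, 50 CPM for 16, 100 CPM for 10 and 200 CPM for 4. The 4 were 2900097C17Rik (471 CPM on unscaled counts), which is mouse Norad, Malat1 (442 CPM), 3930402G23Rik (225 CPM) and Neat1 (215 CPM). In each of the 5 groups, 100 to 105 members averaged 5 CPM or more, and 87 did so in every group. Several lncRNAs known from other tissues were nearly silent here: Meg3 averaged 0.0108 CPM, Miat 0.0036 CPM, Xist 0.270 CPM and H19 0.913 CPM.

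**Figure D1:**
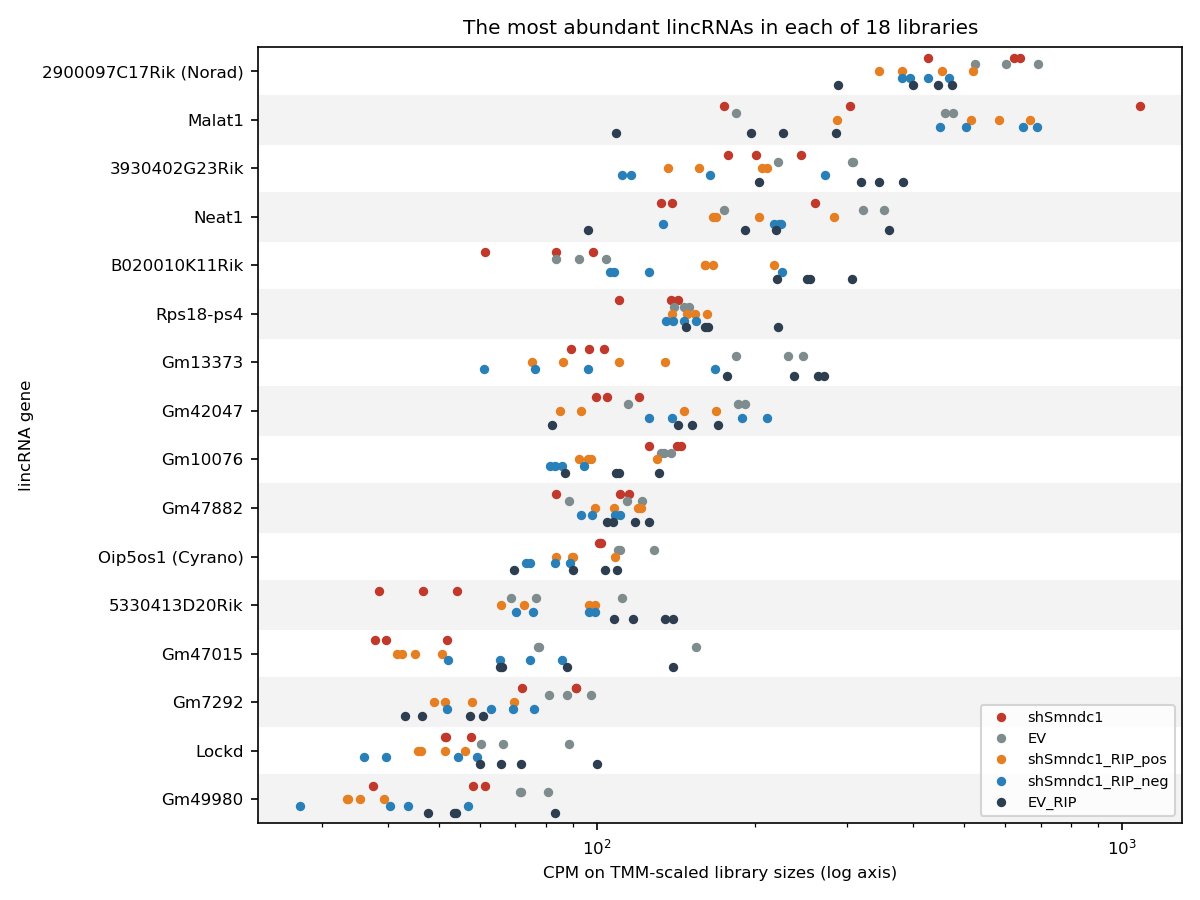
CPM on TMM-scaled library sizes (log axis) of the 16 lincRNAs that average at least 50 CPM, with 1 point per library and groups in colour. Norad (2900097C17Rik) lies between 288 and 692 CPM in all libraries, whereas Malat1 spreads from 109 to 1083 CPM and the Gm13373 points of the groups with the shRNA lie left of those of EV and EV_RIP.

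Norad keeps Pumilio proteins, which bind messenger RNAs and lower their stability, away from their targets by offering them many copies of the Pumilio element. Mouse Norad is a single-exon gene on GRCm38 chromosome 2, bases 156388065 to 156392979 of the minus strand. Its transcript of 4915 bases holds 11 matches to TGTANATA. The stretch from transcript base 2422 to 2478 (GENCODE sequence) is shown because 2 matches, in capitals, stand side by side.
Norad: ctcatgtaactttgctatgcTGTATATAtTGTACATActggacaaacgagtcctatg
Norad had 622, 639 and 428 CPM in shSmndc1 cells, against 692, 602 and 526 CPM in EV cells. In the sorted cells it had 381, 520, 344 and 455 CPM in shSmndc1_RIP_pos and 381, 468, 396 and 428 CPM in shSmndc1_RIP_neg, against 288, 446, 400 and 476 CPM in EV_RIP. The groups overlapped in all 3 comparisons, and none passed the test (edgeR log2 fold changes -0.11 ± 0.18, 0.08 ± 0.16 and 0.06 ± 0.16 SE, adjusted p 0.723 to 0.835). The sign of these small values changed when single libraries were left out. Pum2, which encodes a Pumilio protein, passed in no comparison.

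Cyrano, listed as Oip5os1, directs the decay of the microRNA miR-7, which is abundant in islet endocrine cells. The RefSeq mature sequence of miR-7a is given with its seed (bases 2 to 8) in capitals, and below it bases 2931 to 2960 of the Cyrano transcript of 8300 bases with the seed match in capitals, which is 1 of 2 in the transcript.
mmu-miR-7a-5p: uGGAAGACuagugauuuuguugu
Oip5os1: aagaacaacaaaatcaccaatGTCTTCCat
Cyrano had 102, 101 and 102 CPM in shSmndc1 cells, against 128, 111 and 110 CPM in EV cells. These groups did not overlap, yet the difference missed the threshold (log2 fold change -0.20 ± 0.11 SE, edgeR adjusted p = 0.254). In shSmndc1_RIP_pos cells the mean was 93.0 ± 10.7 CPM and in shSmndc1_RIP_neg cells 80.0 ± 7.33 CPM, against 93.2 ± 17.7 CPM in EV_RIP cells (SD, n = 4 each). Neither comparison passed (edgeR adjusted p = 0.989 for shSmndc1_RIP_pos and 0.279 for shSmndc1_RIP_neg), and the sign of the first, near 0, turned under several settings.

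In the first experiment, most lincRNAs that passed the test were lower after Smndc1 knockdown. Of the 111, 2 rose (Gm45847 and Gm49797) and 19 fell, where 7.22% of the 18202 genes tested rose and 7.5% fell (edgeR quasi-likelihood test, adjusted p under 0.05, as for every call below). The members' median log2 fold change was -0.18, against -0.003 over all genes tested, and 74 of 111 values were negative. In bulk RNA such as this, fewer cells that make a transcript and less of it per cell cannot be told apart. Protein-coding genes at the same level rose in 8.68% and fell in 9.77% of 10296. The groups did not overlap for 35 lower and 16 higher members, where 19.8% and 19.7% of all genes did so.

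All 19 lincRNAs that fell have at most 10% of their exonic bases shared with another gene (81 members), and none of the 29 with more did. Against EV_RIP this split was not complete. In shSmndc1_RIP_pos 17 of the 81 and 2 of the 29 fell, and in shSmndc1_RIP_neg 8 and 3. In the first experiment, 2 of 17 single-exon lincRNAs fell and 17 of 93 with several exons. The counts called in shSmndc1 against EV depend on single libraries. They were 0 higher and 5 lower without EV replicate 3, and 1 and 10 without EV replicate 2 or shSmndc1 replicate 2. The higher count was 6 without shSmndc1 replicate 1, and the lower count was 27 without shSmndc1 replicate 3. Gm13373, 5330434G04Rik and A230057D06Rik kept their call whichever library was left out.

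**Figure D2:**
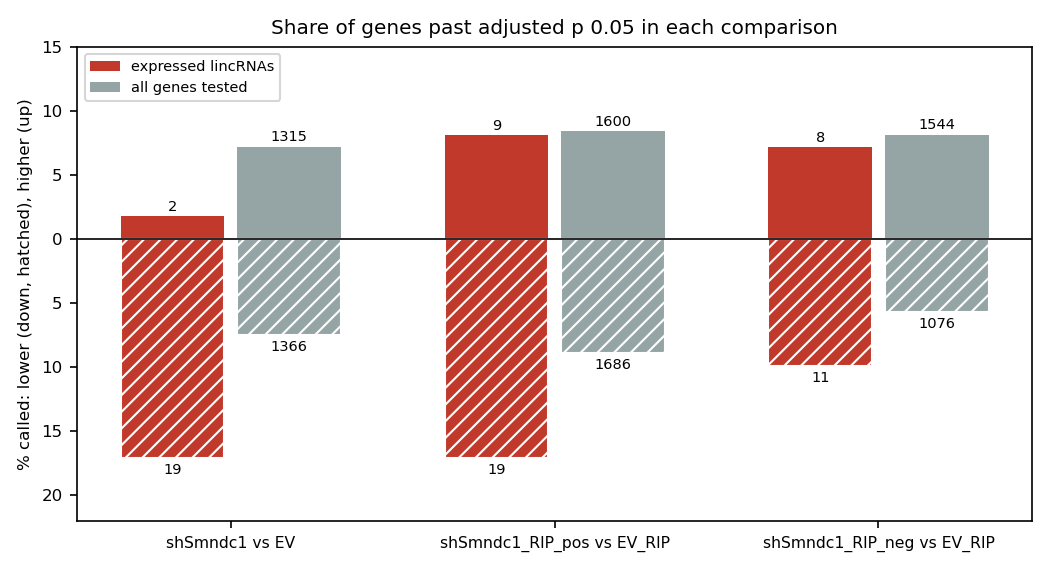
Percentage of genes called higher (upward bars) and lower (downward, hatched) in each comparison with the empty vector, for the 111 lincRNAs (red) and for all genes tested (grey), with the number of genes at each bar. In shSmndc1 against EV, 19 lincRNAs fell and 2 rose.

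Gm13373, on chromosome 2 with 655 exonic bases, was the most abundant lincRNA that fell in the first experiment. It had 103, 96.5 and 89.3 CPM in shSmndc1 cells, against 184, 247 and 231 CPM in EV cells, with no overlap (log2 fold change -1.197 ± 0.14 SE, adjusted p = 0.00528). In shSmndc1_RIP_pos cells it had 135, 75.5, 110 and 86.2 CPM and in shSmndc1_RIP_neg cells 168, 76.4, 96.4 and 61.1 CPM, against 264, 177, 238 and 271 CPM in EV_RIP cells. Every library of both sorted groups lay below every EV_RIP library. The log2 fold changes were -1.22 ± 0.27 SE (adjusted p = 0.00987) in shSmndc1_RIP_pos and -1.24 ± 0.27 SE (adjusted p = 0.0153) in shSmndc1_RIP_neg. Per length it was among the highest members: the deposited FPKM averaged 145 in shSmndc1 and 336 in EV cells, and 155, 152 and 359 in shSmndc1_RIP_pos, shSmndc1_RIP_neg and EV_RIP cells.

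The largest falls were in lincRNAs of lower level. 5330434G04Rik, on the X chromosome, had 3.51, 2.52 and 4.11 CPM in shSmndc1 cells, against 11.3, 13.5 and 13.3 CPM in EV cells (log2 fold change -1.92 ± 0.21 SE, adjusted p = 0.00443). It also fell in shSmndc1_RIP_pos cells, with 7.201, 6.30, 5.34 and 5.58 CPM, against 10.4, 9.36, 16.4 and 14.8 CPM in EV_RIP cells (log2 fold change -1.06 ± 0.24 SE, adjusted p = 0.0125). The groups were apart in both comparisons. Gm32585 had 6.94, 4.78 and 5.70 CPM in shSmndc1 cells, against 11.03, 19.8 and 21.97 CPM in EV cells, again without overlap (-1.60 ± 0.27 SE, adjusted p = 0.0101). A230057D06Rik, on chromosome 7 with 11357 exonic bases, had 6.75, 6.14 and 8.52 CPM, against 15.4, 24.3 and 21.4 CPM (-1.52 ± 0.21 SE, adjusted p = 0.00642).

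Paupar, a single-exon lincRNA that starts 7557 bases from Pax6 on the other strand, is known in mouse to act with Pax6, a transcription factor of alpha cells. It had 2.63, 2.39 and 2.36 CPM in shSmndc1 cells, against 5.35, 8.68 and 7.30 CPM in EV cells (log2 fold change -1.53 ± 0.23 SE, adjusted p = 0.00763). In shSmndc1_RIP_pos cells it had 4.21, 3.71, 4.99 and 4.598 CPM, against 5.98, 6.23, 7.85 and 7.72 CPM in EV_RIP cells (-0.67 ± 0.17 SE, adjusted p = 0.0192). Paupar was lower in each shSmndc1 and shSmndc1_RIP_pos library than in any library of its control group. Pax6 itself passed in no comparison, with log2 fold changes of -0.34 ± 0.17 SE (adjusted p = 0.213) and -0.18 ± 0.14 SE (adjusted p = 0.38). In shSmndc1_RIP_neg cells Paupar had 4.81 to 6.46 CPM, with a log2 fold change of -0.33 ± 0.17 SE that missed the threshold (adjusted p = 0.195).

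Mir124a-1hg is the host transcript of miR-124, a microRNA typical of neurons that is also made in islet cells. It had 9.14, 7.87 and 6.97 CPM in shSmndc1 cells, against 17.1, 18.01 and 12.996 CPM in EV cells (log2 fold change -1.003 ± 0.18 SE, adjusted p = 0.0128). In the sorted experiment it passed in neither comparison, and its EV_RIP libraries ranged from 4.59 to 20.8 CPM. Platr26, a transcript first listed with pluripotency in mouse embryonic stem cells, fell in shSmndc1 cells as well, with 5.97, 5.14 and 3.63 CPM, against 8.47, 10.6 and 12.04 CPM in EV cells (-1.08 ± 0.23 SE, adjusted p = 0.0193). Among the other members named by size, Gm48558 (-1.27 ± 0.29 SE, adjusted p = 0.024), Gm47015 (-1.26 ± 0.27 SE, adjusted p = 0.0203) and Gm20300 (-1.16 ± 0.21 SE, adjusted p = 0.0131) fell to less than the lowest EV library in all 3 shSmndc1 libraries.

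Gm45847 and Gm49797 were the lincRNAs that rose in the first experiment. Gm45847 had 16.2, 18.96 and 22.3 CPM in shSmndc1 cells, against 5.65, 9.41 and 8.53 CPM in EV cells (log2 fold change 1.28 ± 0.21 SE, adjusted p = 0.0102). It shares 12.7% of its exonic bases with Gm45846. Gm49797, which overlaps the coding gene Scaf8 in position but shares 2.51% of its exonic bases on the same strand, had 11.9, 13.7 and 13.2 CPM in shSmndc1 cells, against 9.73, 7.84 and 7.44 CPM in EV cells (0.63 ± 0.16 SE, adjusted p = 0.0336). Both also rose in the sorted cells: Gm45847 averaged 17.6 ± 5.26 CPM in shSmndc1_RIP_pos and 13.9 ± 5.05 CPM in shSmndc1_RIP_neg, against 4.55 ± 1.14 CPM in EV_RIP (SD, n = 4 each, log2 fold changes 1.95 ± 0.29 and 1.61 ± 0.29 SE, adjusted p = 0.00175 and 0.0105 in edgeR). For Gm49797 the log2 fold changes were 0.79 ± 0.25 SE (adjusted p = 0.0416) and 0.86 ± 0.25 SE (adjusted p = 0.0373), with 1 shSmndc1_RIP_neg library (8.16 CPM) inside the EV_RIP range.

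**Figure D3:**
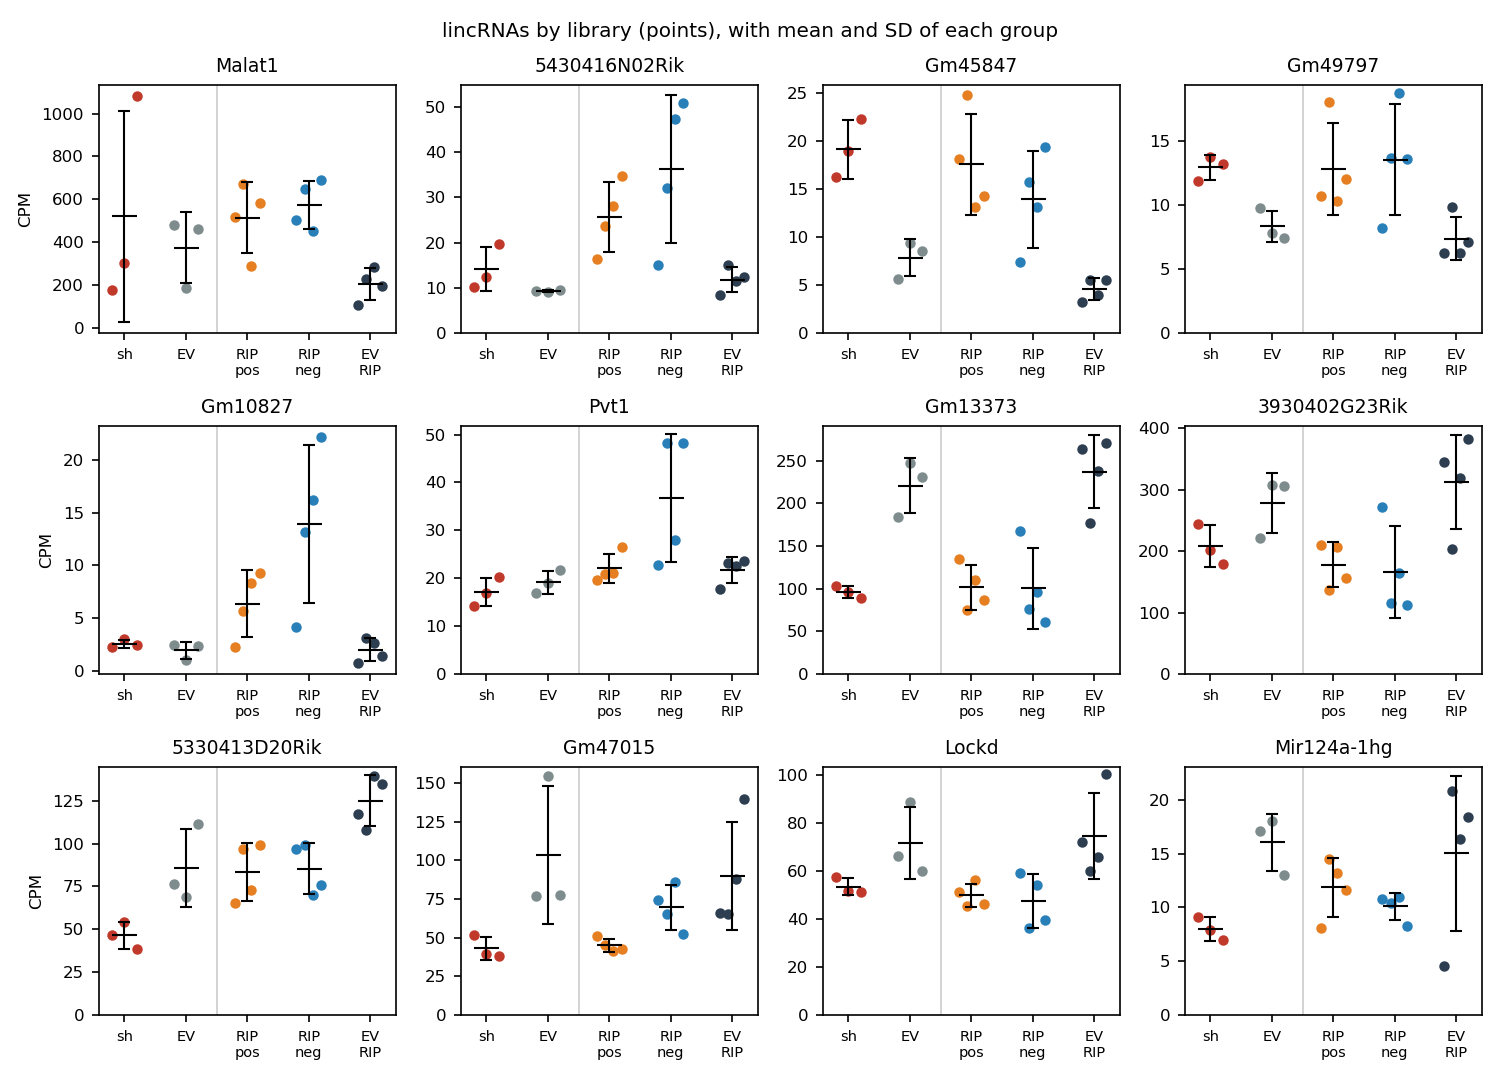
CPM of 12 lincRNAs in every library (points), with the mean and SD of each group (bars), where sh stands for shSmndc1, RIP pos and RIP neg for the sorted groups and EV RIP for EV_RIP. Gm13373 is lower in every library with the shRNA than in the empty-vector libraries of its experiment, and Malat1 is between 287 and 688 CPM in the sorted libraries, above 109 to 286 CPM in EV_RIP.

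In reporter-positive cells, lincRNAs changed in both directions, with Malat1 and Gm45847 among the higher and Gm13373 and 3930402G23Rik among the lower. Against EV_RIP, 9 of 111 rose and 19 fell in shSmndc1_RIP_pos, where 8.47% and 8.92% of 18897 genes tested did so. The members' median log2 fold change was -0.12, against 0.001 over all genes, and protein-coding genes at the same level rose in 7.94% and fell in 13.4%. The groups did not overlap for 10 higher and 20 lower members, against 11.7% of all genes in each direction. Leaving out single libraries gave 4 to 9 higher and 7 to 22 lower members. Of the 28 calls, 9 held whichever library of either group was left out. They were those of Gm20342, Gm13373, 5330434G04Rik, Gm45847, Gm21781, Gm47015, Gm48558, 1700086O06Rik and Malat1. The higher count was 4 without shSmndc1_RIP_pos replicate 2, 5 without its replicate 3 or 4, and 6 without EV_RIP replicate 1, 3 or 4. The lower count fell to 7 without shSmndc1_RIP_pos replicate 2, 8 without EV_RIP replicate 4, 9 without shSmndc1_RIP_pos replicate 3 or EV_RIP replicate 3, 10 without shSmndc1_RIP_pos replicate 4, and 11 without EV_RIP replicate 1.

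Against the same EV_RIP controls, 8 of 111 lincRNAs rose and 11 fell in the libraries labelled shSmndc1_RIP_neg, where 8.17% and 5.69% of all genes did. Among protein-coding genes at the same level, 6.5% rose and 8.71% fell, with a median log2 fold change of -0.08. The median log2 fold change of the members was -0.09, against -0.01 over all genes. Their groups did not overlap for 6 higher and 8 lower members (7.24% and 7.2% of all genes). All 19 calls were lost when shSmndc1_RIP_neg replicates 3 and 4, those with most Rn7sk, were left out, and 4 genes of the whole table were then called. Without shSmndc1_RIP_neg replicate 4 alone, 2 rose and 0 fell, without replicate 2, 4 rose and 0 fell, without replicate 3, 6 rose and 4 fell, and without replicate 1, 16 rose and 32 fell. Without single EV_RIP libraries, 5 and 3 (replicate 1), 5 and 5 (replicate 3) and 8 and 6 (replicate 4) passed. Gm45847 and Malat1 kept their call without any 1 library.

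Malat1, on chromosome 19 (bases 5795690 to 5802672, minus strand), was the abundant lincRNA that rose most in the sorted cells. It had 516, 670, 287 and 585 CPM in shSmndc1_RIP_pos and 505, 648, 450 and 688 CPM in shSmndc1_RIP_neg cells, against 109, 226, 286 and 197 CPM in EV_RIP cells. All 8 sorted libraries were above all 4 EV_RIP libraries, although shSmndc1_RIP_pos replicate 3 and EV_RIP replicate 3 nearly met. The log2 fold changes were 1.33 ± 0.28 SE (adjusted p = 0.00779) and 1.49 ± 0.28 SE (adjusted p = 0.0112), and over the other settings the adjusted p ran from 8.4e-05 to 0.029 and from 2.3e-05 to 0.14. The highest of these came without shSmndc1_RIP_neg replicates 3 and 4. The lowest Malat1 level was in EV_RIP replicate 1, which also had 0.587% mitochondrial counts, against 2.34% to 4.76% in the other libraries. Without that library the log2 fold changes were 1.14 and 1.28, and both passed.

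In the first experiment Malat1 did not pass. It had 174, 303 and 1083 CPM in shSmndc1 cells, against 478, 184 and 461 CPM in EV cells, so that 1 shSmndc1 library was above and 1 below all EV libraries (log2 fold change 0.47 ± 0.61 SE, adjusted p = 0.627). Without shSmndc1 replicate 3 the value turned to -0.65. Across the 18 libraries, with log2 CPM centred on the controls of each experiment, the lincRNAs most like Malat1 were Gm43660 (Pearson r = 0.847), Gm42595 (0.796) and Gm49668 (0.787), as a description of libraries that also differ in depth. Among 11 proteins that build nuclear speckles, the bodies in which Malat1 resides, Son, Srrm2, Srrm1 and Pnn rose in shSmndc1_RIP_pos cells (log2 fold changes 0.44 to 0.56) and in shSmndc1_RIP_neg cells (0.52 to 0.66), where 8.47% and 8.17% of all genes rose, and 0 of 11 passed in the first experiment. The median of the 11 was 0.25 and 0.32 in the sorted groups, against 0.001 and -0.01 over all genes.

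The RefSeq promoter windows (250 bases before to 50 after a gene's start, GRCm38.p6) hold 59 of the 111 members, in 79 windows. The Malat1 window is shown because the gene rose in both sorted groups, with matches to TGACGT, the core of the site bound by CREB and ATF factors, in capitals on either strand.
Malat1, chr19:5802623-5802922, minus strand: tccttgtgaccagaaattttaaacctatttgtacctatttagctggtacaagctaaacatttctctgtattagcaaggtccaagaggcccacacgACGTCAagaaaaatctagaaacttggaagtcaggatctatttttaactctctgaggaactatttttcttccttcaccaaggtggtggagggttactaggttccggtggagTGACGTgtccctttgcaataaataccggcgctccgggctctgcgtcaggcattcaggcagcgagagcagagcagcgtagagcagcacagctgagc
The matches begin at -155 and -45 from the start. TGACGT was found in 7.51% of 32851 mouse windows and in 5 of the 79 member windows (6.33%), so its presence here is a description only. The other motifs searched on both strands, some of which overlap it, were the full site TGACGTCA (1.79% of windows), the AP-1 site TGANTCA (7.81%), the E-box CACGTG (7.15%) and the TATA box TATAAA (13.6%).

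Neat1, the scaffold of paraspeckles, lies next to Malat1 on chromosome 19 and spans 5824708 to 5845478. It had 133, 139 and 260 CPM in shSmndc1 cells, against 175, 321 and 352 CPM in EV cells (log2 fold change -0.67 ± 0.32 SE, adjusted p = 0.175). The sorted groups had 166 to 283 CPM (shSmndc1_RIP_pos) and 134 to 224 CPM (shSmndc1_RIP_neg), inside the EV_RIP range of 96.4 to 361 CPM, with log2 fold changes of -0.08 ± 0.30 and -0.12 ± 0.30 SE. Neat1 thus overlapped its controls in each comparison, and the sign of the sorted values depended on single libraries. Of 17 paraspeckle proteins, Taf15 (-0.71 ± 0.14 SE, adjusted p = 0.016) and Hnrnph1 (-0.63 ± 0.16 SE, adjusted p = 0.0336) fell in shSmndc1 cells, where 7.5% of all genes did. Nono, a core paraspeckle protein, fell in shSmndc1_RIP_pos (-0.39 ± 0.10 SE, adjusted p = 0.0171) and shSmndc1_RIP_neg cells (-0.32 ± 0.10 SE, adjusted p = 0.043). No other of the 17 passed in these comparisons, where 8.92% and 5.69% of all genes fell, so the counts are close to or below these shares.

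Among genes for the processing and decay of nuclear RNA, Exosc5 passed in all 3 comparisons with the empty vector. Of 17 tested genes of the nuclear exosome and its adaptors, which degrade nuclear RNA, this core subunit fell each time (log2 fold changes -0.56 ± 0.15 in shSmndc1, -0.89 ± 0.16 in shSmndc1_RIP_pos and -0.64 ± 0.16 SE in shSmndc1_RIP_neg), and the adaptor Rbm7 rose in shSmndc1_RIP_pos (0.42 ± 0.11 SE). Of 23 Integrator and cleavage genes, which end transcripts, 2 rose in shSmndc1 cells (Ints14 and Pcf11), 1 rose and 2 fell in shSmndc1_RIP_pos, and Pcf11 rose in shSmndc1_RIP_neg (0.84 ± 0.19 SE). Over all genes, 7.22% rose and 7.5% fell in shSmndc1, 8.47% and 8.92% in shSmndc1_RIP_pos, and 8.17% and 5.69% in shSmndc1_RIP_neg, and the counts for the exosome and for the Integrator and cleavage genes are close to or below these shares. Among 9 tested genes of m6A methylation, which marks Malat1 and Xist among others, Virma rose in shSmndc1 cells, Virma and Cbll1 in shSmndc1_RIP_pos, and Zc3h13, Rbm15 and Cbll1 in shSmndc1_RIP_neg. Of 6 proteins that act with Xist, Spen and Rbm15 rose in shSmndc1_RIP_neg. The lincRNAs Ftx and Jpx, activators of Xist on the X chromosome, averaged 6.68 ± 3.06 and 7.60 ± 2.76 CPM in shSmndc1 cells, against 8.76 ± 1.52 and 10.1 ± 1.81 CPM in EV cells (SD, n = 3 each), and passed in no comparison.

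Of the lincRNAs that fell in the sorted cells, 3930402G23Rik was the most abundant. It had 211, 136, 206 and 157 CPM in shSmndc1_RIP_pos and 272, 116, 164 and 112 CPM in shSmndc1_RIP_neg cells, against 345, 204, 318 and 382 CPM in EV_RIP cells. EV_RIP replicate 2 lay within the range of both sorted groups (log2 fold changes -0.81 ± 0.26 SE, adjusted p = 0.0468, and -0.91 ± 0.26 SE, adjusted p = 0.0367). In the first experiment the value was -0.42 ± 0.17 SE (adjusted p = 0.13). It lies 55985 bases from Irs2, the insulin receptor substrate gene, which passed in no comparison (0.14 ± 0.14 and 0.18 ± 0.14 SE in the sorted groups).

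Lockd lies 3579 bases downstream of Cdkn1b, the gene of the cell cycle inhibitor p27, and in mouse erythroid cells its locus acts as an enhancer of Cdkn1b. It had 51.3, 45.6, 56.1 and 46.3 CPM in shSmndc1_RIP_pos and 59.3, 36.05, 54.3 and 39.6 CPM in shSmndc1_RIP_neg cells, against 71.9, 60.04, 65.8 and 100 CPM in EV_RIP cells. No sorted library reached the lowest EV_RIP value (log2 fold changes -0.58 ± 0.18 SE, adjusted p = 0.0389, and -0.66 ± 0.18 SE, adjusted p = 0.0299). Gm44238, on the other strand across the start of Lockd with 45.3% of its bases inside Lockd, fell as well (-0.69 ± 0.20 SE, adjusted p = 0.0286, and -0.76 ± 0.20 SE, adjusted p = 0.0261), and the reads of the pair may not be told apart. Cdkn1b fell in shSmndc1_RIP_neg (-0.36 ± 0.10 SE, adjusted p = 0.0323) and missed the threshold in shSmndc1_RIP_pos (-0.23 ± 0.10 SE, adjusted p = 0.12). Neither lincRNA passed in the first experiment (-0.42 ± 0.16 SE for Lockd, adjusted p = 0.0958), though both had no overlap there.

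Pvt1, whose gene follows Myc on chromosome 15 and is co-amplified with it in human tumours, rose in the libraries labelled shSmndc1_RIP_neg. It had 19.6, 20.9, 21.2 and 26.6 CPM in shSmndc1_RIP_pos and 22.8, 48.2, 27.9 and 48.2 CPM in shSmndc1_RIP_neg, against 17.7, 23.2, 22.7 and 23.6 CPM in EV_RIP. Replicates 2 and 4 of shSmndc1_RIP_neg stood far above the controls and replicate 1 lay among them (log2 fold change 0.76 ± 0.21 SE, adjusted p = 0.033), whereas shSmndc1_RIP_pos gave 0.02 ± 0.21 SE (adjusted p = 0.961). Myc, 47612 bases away, had 7.96, 17.2, 18.2 and 27.5 CPM in shSmndc1_RIP_pos and 8.11, 27.4, 44.8 and 47.8 CPM in shSmndc1_RIP_neg, against 3.48, 7.96, 4.99 and 6.71 CPM in EV_RIP. Myc rose in both sorted groups (1.61 ± 0.46 SE, adjusted p = 0.0297, and 2.45 ± 0.47 SE, adjusted p = 0.0118) and did not pass in shSmndc1 against EV (0.21 ± 0.21 SE, adjusted p = 0.516).

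Gm10827 had the largest rise of any member in shSmndc1_RIP_neg. It had 2.32, 5.68, 8.34 and 9.28 CPM in shSmndc1_RIP_pos and 4.21, 13.2, 16.2 and 22.2 CPM in shSmndc1_RIP_neg, against 0.813, 3.19, 2.704 and 1.43 CPM in EV_RIP (log2 fold changes 1.63 ± 0.51 SE, adjusted p = 0.0425, and 2.75 ± 0.53 SE, adjusted p = 0.0119). Replicate 1 was lowest in both sorted groups, and that of shSmndc1_RIP_pos overlapped EV_RIP. Gm10827 starts 55 bases from Ccdc28a on the other strand, and Ccdc28a rose in shSmndc1_RIP_neg (0.43 ± 0.13 SE, adjusted p = 0.0388) but did not pass in shSmndc1_RIP_pos (0.16 ± 0.13 SE, adjusted p = 0.408). The RefSeq window of Ccdc28a is shown because it also spans the first base of Gm10827 (18235053). A match to TGACGT on the other strand, in capitals, begins at -17 from the start of Ccdc28a.
Ccdc28a, chr10:18234932-18235231, minus strand: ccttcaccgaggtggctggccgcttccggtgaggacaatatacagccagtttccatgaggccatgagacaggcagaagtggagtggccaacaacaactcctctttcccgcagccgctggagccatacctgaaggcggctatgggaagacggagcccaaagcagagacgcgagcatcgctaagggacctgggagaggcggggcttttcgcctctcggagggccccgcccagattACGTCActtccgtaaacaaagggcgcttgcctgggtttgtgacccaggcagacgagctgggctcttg

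5430416N02Rik also rose in both sorted groups. It had 16.3, 23.6, 28.1 and 34.7 CPM in shSmndc1_RIP_pos and 14.99, 32.1, 47.2 and 50.9 CPM in shSmndc1_RIP_neg, against 8.30, 15.04, 11.5 and 12.3 CPM in EV_RIP (log2 fold changes 1.12 ± 0.32 SE, adjusted p = 0.0296, and 1.61 ± 0.32 SE, adjusted p = 0.0129). Replicate 1 of shSmndc1_RIP_neg lay just inside the EV_RIP range. In the first experiment it had 10.2, 12.5 and 19.6 CPM in shSmndc1, against 9.19, 9.04 and 9.43 CPM in EV, without overlap but short of the threshold (0.61 ± 0.23 SE, adjusted p = 0.105). Its window is shown beside that of Lockd, which fell, and neither holds any of the motifs searched.
5430416N02Rik, chr5:100429486-100429785, minus strand: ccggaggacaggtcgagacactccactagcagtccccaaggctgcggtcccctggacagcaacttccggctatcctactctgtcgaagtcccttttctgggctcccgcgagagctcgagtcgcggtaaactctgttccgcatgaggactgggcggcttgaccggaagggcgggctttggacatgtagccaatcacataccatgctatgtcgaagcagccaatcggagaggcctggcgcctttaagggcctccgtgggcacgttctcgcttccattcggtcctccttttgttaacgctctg
Lockd, chr6:134928842-134929141, plus strand: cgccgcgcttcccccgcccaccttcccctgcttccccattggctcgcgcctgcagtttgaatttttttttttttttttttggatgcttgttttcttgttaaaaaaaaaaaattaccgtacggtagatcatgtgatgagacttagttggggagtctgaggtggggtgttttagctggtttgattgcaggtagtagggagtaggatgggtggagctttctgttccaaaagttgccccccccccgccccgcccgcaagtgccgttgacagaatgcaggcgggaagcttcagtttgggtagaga
Of the other members that rose, Gm21781 did so in both sorted groups (log2 fold changes 1.59 ± 0.28 SE, adjusted p = 0.00361, and 1.298 ± 0.28 SE, adjusted p = 0.015), as did its neighbour Zbtb2, which encodes a zinc-finger protein (0.91 ± 0.21 and 1.02 ± 0.21 SE, adjusted p = 0.0112 and 0.0131 in edgeR). Gm20342 (1.39 ± 0.27 SE, adjusted p = 0.00607) and 2700038G22Rik (0.86 ± 0.22 SE, adjusted p = 0.0181) rose in shSmndc1_RIP_pos, and Gm47283, on the Y chromosome, rose in shSmndc1_RIP_neg with 5.23, 14.8, 55.2 and 46.9 CPM, against 4.42 to 7.48 CPM in EV_RIP (2.37 ± 0.62 SE, adjusted p = 0.0266).

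B020010K11Rik and Gm14616 fell in the libraries labelled shSmndc1_RIP_neg. B020010K11Rik had 225, 126, 108 and 106 CPM there, against 306, 220, 255 and 251 CPM in EV_RIP (log2 fold change -0.87 ± 0.21 SE, adjusted p = 0.0199), and shares 37.9% of its exonic bases with Gm17383 on the other strand. Gm14616 had 37.3, 20.6, 19.2 and 23.03 CPM, against 44.8, 34.1, 40.8 and 39.6 CPM (-0.66 ± 0.19 SE, adjusted p = 0.0352). In both genes replicate 1 was the highest of the group and overlapped the controls. Platr26 fell there too (-1.13 ± 0.33 SE, adjusted p = 0.0368). In shSmndc1_RIP_pos, Gm33424 fell to 6.72, 2.62, 4.01 and 4.20 CPM, against 17.03, 5.50, 11.8 and 17.9 CPM in EV_RIP (-1.57 ± 0.44 SE, adjusted p = 0.0284), and Gm47015 to 50.7, 45.1, 41.6 and 42.5 CPM, against 66.1, 65.4, 88.0 and 139 CPM (-0.99 ± 0.22 SE, adjusted p = 0.00935).

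shSmndc1 against EV and shSmndc1_RIP_pos against EV_RIP share no library, so their calls can be set side by side. Both lincRNAs that rose in the first also rose in the second, which had 9. Of the 19 that fell in each, 12 fell in both, and 0 moved in opposite directions. The same overlap over all genes was not counted, so it is not shown to be particular to lincRNAs. The 12 were 1700086O06Rik, 4933404O12Rik, 5330413D20Rik, 5330434G04Rik, A230057D06Rik, Gm11734, Gm13373, Gm20300, Gm32585, Gm47015, Gm48558 and Paupar, of which 4 are named only because they fell in both. The log2 fold changes of the 111 members had the same sign in 89 (80.2%), with Pearson r = 0.819 across genes, which are not independent replicates, beside 78.6% and 0.760 for the 17891 genes tested in both. Of the named 12, 5330413D20Rik was the second most abundant after Gm13373: it had 46.7, 54.3 and 38.4 CPM in shSmndc1, against 76.7, 68.8 and 112 CPM in EV (-0.88 ± 0.20 SE, adjusted p = 0.024), and 65.6 to 99.2 CPM in shSmndc1_RIP_pos, against 108 to 140 CPM in EV_RIP (-0.58 ± 0.16 SE, adjusted p = 0.0233).

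**Figure D4:**
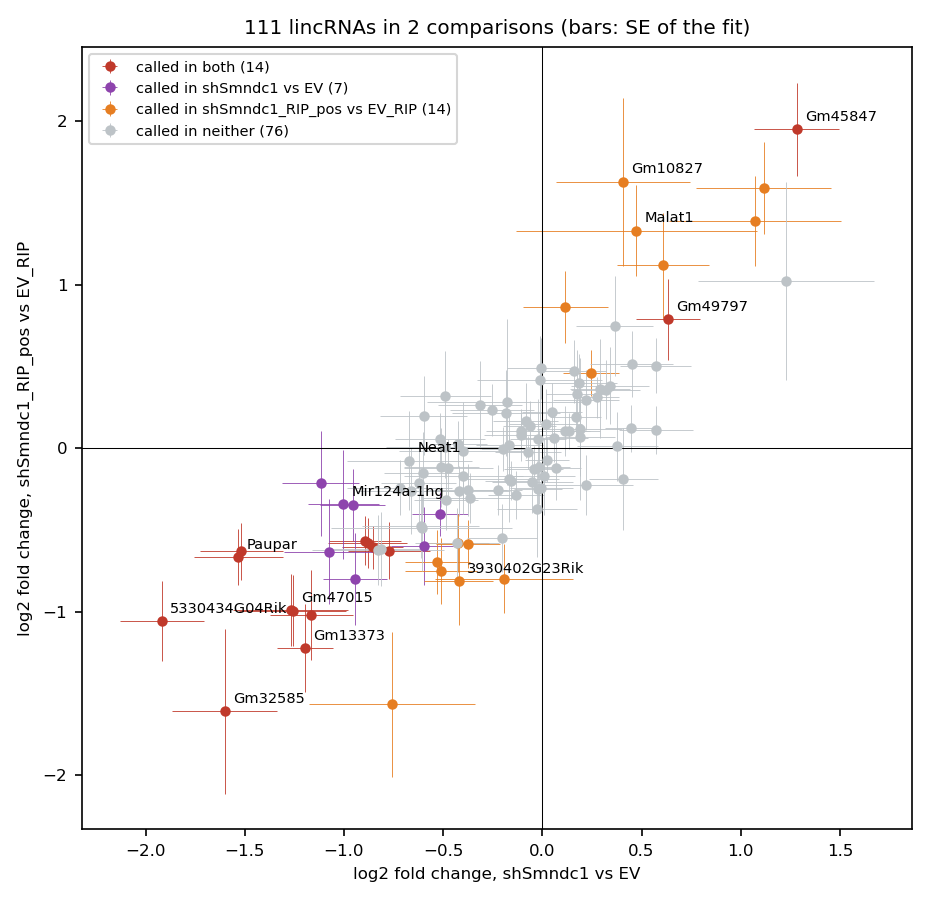
Each point is 1 of the 111 lincRNAs, with its log2 fold change in shSmndc1 against EV (horizontal) and in shSmndc1_RIP_pos against EV_RIP (vertical) and bars for the SE of each. The 14 called in both (red) lie in the lower left or upper right corner, and Malat1 lies high on the vertical axis with a wide horizontal bar.

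The difference between these effects was tested over all 18 libraries as the effect of shSmndc1 minus that of shSmndc1_RIP_pos. It passed for 0 of 111 lincRNAs and 0 of 20036 genes in edgeR, with 7 and 861 at an unadjusted p under 0.05, and DESeq2 called 0 lincRNAs and 3 genes. Calls made in 1 of these comparisons and missed in the other, such as that of Malat1 or Mir124a-1hg, are therefore not shown to differ between the experiments.

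For most called lincRNAs the coding gene next to them was not called. Of the 93 members with a coding neighbour, 17 were called in shSmndc1 against EV, and the neighbour was called in 4 of these cases, once in the same direction (Gm20300 and Hint3, both lower). The opposite direction held for D130017N08Rik and Usp42, Erdr1 and Mid1, and 1700018A04Rik and Foxf2, where the lincRNA fell and starts 24 bases from Foxf2, which rose (0.58 ± 0.12 SE, adjusted p = 0.0191). In shSmndc1_RIP_pos, 24 were called and 4 neighbours with them, 3 in the same direction (Gm39214 with Itfg1, Gm20300 with Hint3, Gm21781 with Zbtb2) and 2810429I04Rik with Gdi2 in the opposite one. In shSmndc1_RIP_neg, 15 were called and 5 pairs moved the same way, those of Lockd and Gm44238 with Cdkn1b, Pvt1 with Myc, Gm21781 with Zbtb2 and Gm10827 with Ccdc28a. Over all 93 members with a coding neighbour, the neighbour was called for 13 in shSmndc1, 22 in shSmndc1_RIP_pos and 13 in shSmndc1_RIP_neg, where 14.7%, 17.4% and 13.9% of all genes tested were called in either direction. Whether neighbours of called lincRNAs were called more often was not tested.

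Reporter-positive and reporter-negative cells were compared directly. Without regard to the replicate numbers, 0 of 111 lincRNAs and 0 of 18897 genes passed in edgeR, where 13 lincRNAs and 2314 genes had an unadjusted p under 0.05, and DESeq2 called 1 lincRNA and 290 genes. The groups did not overlap for 3 higher and 2 lower lincRNAs, beside 3.33% and 3.25% of all genes. Sorted libraries of the same number deviated together in all 4 pairs (correlation 0.136 to 0.620). Between shSmndc1_RIP_neg and EV_RIP the highest such value was 0.487, and between shSmndc1_RIP_pos and EV_RIP 0.434. The labels do not say that a number marks a shared culture, so pairing the sorted samples by number is an assumption of the blocked fits. With the replicate number as a block over the 12 libraries, 78 genes (0.413%, with 0.116% higher and 0.296% lower) and 1 lincRNA passed, C130083M11Rik (log2 fold change -1.11 ± 0.19 SE, adjusted p = 0.0438). It had 4.57, 3.95, 4.74 and 6.09 CPM in shSmndc1_RIP_pos, against 7.17, 12.95, 8.53 and 13.3 CPM in shSmndc1_RIP_neg, lower in 4 of 4 pairs. With the block over the 8 sorted libraries alone, a fit added after the data had been seen, 1517 of 17994 genes passed (8.43%, with 3.71% higher and 4.72% lower) and 15 lincRNAs did, 7 higher and 8 lower in shSmndc1_RIP_pos.

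The lower ones in that paired fit were Gm47283 (log2 fold change -1.18 ± 0.14 SE, adjusted p = 0.000494), C130083M11Rik (-1.10 ± 0.18 SE, adjusted p = 0.00241), Gm10827 (-1.09 ± 0.14 SE, adjusted p = 0.000713), Gm28187, Pvt1 (-0.68 ± 0.14 SE, adjusted p = 0.0102), Gm47015 (-0.60 ± 0.11 SE, adjusted p = 0.00515), Erdr1 and Gm42047. Each was lower in 4 of 4 pairs, although the unpaired value of Gm47283 turned to 0.23 without shSmndc1_RIP_neg replicates 3 and 4. The higher ones were Gm20342 (0.74 ± 0.17 SE, adjusted p = 0.0145), Gm49598, Platr26, Dbpht2, Gm14616, Gm2694 and B020010K11Rik (0.38 ± 0.11 SE, adjusted p = 0.0416), in 4 of 4 pairs except Platr26 and B020010K11Rik, in 3 of 4. Malat1 had a log2 fold change of -0.16 ± 0.27 SE between the sorted groups in the unpaired fit (adjusted p = 0.856). Ins2, an insulin gene, had 13.7, 13.5, 6.90 and 6.12 CPM in shSmndc1_RIP_pos, against 5.13, 2.33, 1.92 and 1.59 CPM in shSmndc1_RIP_neg. Rn7sk had 2.44 to 4.68 CPM, against 4.53 to 161 CPM. The part of Rn7sk in these lincRNA values was not tested.

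**Figure D5:**
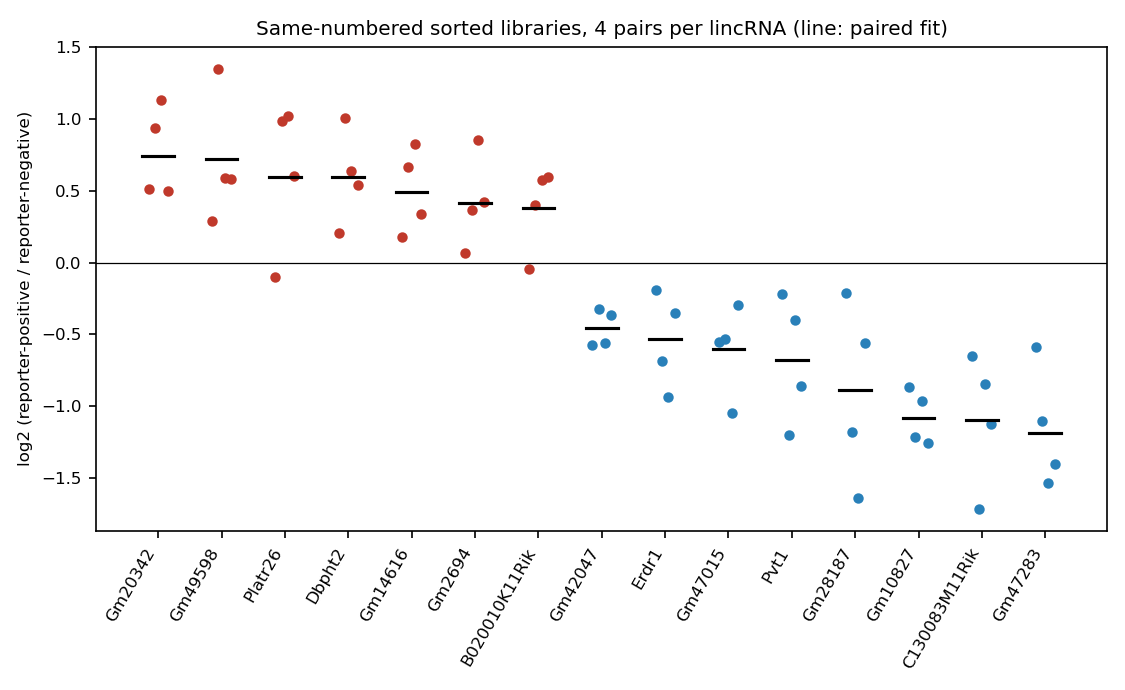
log2 ratio of CPM in shSmndc1_RIP_pos over shSmndc1_RIP_neg for the 4 same-numbered pairs of sorted libraries (points), for the 15 lincRNAs called in the paired fit, whose log2 fold change is the black line. The 8 lower genes are below 0 in every pair, and of the 7 higher ones Platr26 and B020010K11Rik have 1 pair just below 0.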

How the data were processed

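RNA of alphaTC1 cells was sequenced in 18 libraries of 2 experiments, as stranded poly(A)-selected libraries with 75 bp paired reads, per the labels' protocols. The authors deposited raw counts per Ensembl gene and FPKM values for each experiment. The deposited FPKM were used only to set levels of genes of different length side by side. The build was GRCm38/mm10, and the tools named are DESeq2 1.30.0, STAR 2.7.5a and Picard 2.19.2, per the submitters' processing notes. How reads were assigned to genes, and with which strand setting, is not given in these sources.

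The count tables were tested with edgeR 4.0.16 in R 4.3.3 (filterByExpr, TMM, quasi-likelihood test). P-values were adjusted by Benjamini-Hochberg over all genes tested, with a threshold of 0.05. The first experiment made 1 fit of 6 libraries and the second 1 fit of 12. The difference of effects used all 18. CPM are counts on TMM-scaled library sizes within an experiment. DESeq2 1.42.0, RLE scaling, other filters, left-out libraries and replicate blocks were alternatives. The fits were tested on simulated data. Same-numbered libraries deviated together for the sorted groups (correlation 0.136 to 0.620) but not throughout for shSmndc1 and EV (-0.030 to 0.258), shSmndc1_RIP_neg and EV_RIP (-0.288 to 0.487) or shSmndc1_RIP_pos and EV_RIP (-0.049 to 0.434).

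Exon structure and overlaps came from GENCODE vM21, in which 54821 of 55487 genes have identical coordinates. Named genes are members on a list of lncRNAs with a described role, up to 8 higher and 8 lower called members per comparison with the largest fold change, the 8 most abundant members, and their nearest coding genes. Members 5330413D20Rik, 1700086O06Rik, 4933404O12Rik, Gm11734, Bc1, Gm46620 and those named in the paired fit or with a neighbour were named after their values were seen. The members and the lists were chosen with earlier results of these data known. Some genes are not reported here.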

Additional observations from a re-analysis of the deposited data

Results flagged for a closer look

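A set is flagged by chance about 1 in 20 times, a rate that can be set beside a count of independent sets only. The 99 sets of 4 libraries examined (33 named lincRNAs in 3 groups) reuse the same libraries and are not independent. Of these sets, 9 held 1 library that stood apart from the other 3. In shSmndc1_RIP_pos these were Gm21781 at 15.4 CPM and Gm20342 at 9.62 CPM in replicate 2, and B020010K11Rik at 218 CPM in replicate 1, each above its group. In shSmndc1_RIP_neg, replicate 1 stood above its group for Platr26 (17.3 CPM) and B020010K11Rik (225 CPM) and below it for Gm21781 (6.04 CPM), and replicate 3 stood below it for Neat1 (134 CPM). In EV_RIP, replicate 1 was low for Pvt1 (17.7 CPM) and Gm21781 (1.73 CPM).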

How the results depend on the processing

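No lincRNA called and named in a comparison with the empty vector changed sign under the alternatives run, and in shSmndc1 against EV all 12 named calls held with DESeq2, RLE scaling, no filter and the replicate block. The counts below give genes, then lincRNAs, each higher then lower. In shSmndc1 against EV (1315 and 1366, 2 and 19), no filter gave 2024 and 2141, 7 and 32, DESeq2 gave 8 higher lincRNAs, a list from 2 CPM gave 7 and 36, and leaving out members with over 10% shared bases gave 1 higher. In shSmndc1_RIP_neg against EV_RIP (1544 and 1076, 8 and 11), DESeq2 gave 2424 higher genes, no filter 1700 lower genes and 18 lower lincRNAs, the fit of those 2 groups alone 843 and 446 genes and 4 lower lincRNAs, a list from 2 CPM 14 higher, and leaving out shSmndc1_RIP_neg replicates 3 and 4 4 and 0, 0 and 0. In shSmndc1_RIP_pos against EV_RIP, a list from 2 CPM gave 16 higher. Between the sorted groups (0 genes), DESeq2 gave 95 and 195 genes with 1 lower lincRNA, and no filter 39 and 111 with 1 lower. The difference of effects gave 1 and 2 genes with DESeq2 and 1 and 4 with no filter. The cause of these shifts was not tested.

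With the replicate number as a block, shSmndc1_RIP_neg against EV_RIP gave 2421 and 2176 genes, 16 and 20 lincRNAs, and shSmndc1_RIP_pos against EV_RIP gave 2508 and 2571 genes, 13 and 27 lincRNAs, though these groups share only a number with EV_RIP. In shSmndc1 against EV the block gave 1343 and 1470 genes, 2 and 24 lincRNAs. Between the sorted groups, with pairing by number assumed, the block gave 22 and 56 genes with 1 lower lincRNA. Over the sorted libraries only, it gave 667 and 850 genes, 7 and 8 lincRNAs.

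Leaving out 1 library at a time gave 71 to 1547 higher and 110 to 1789 lower genes in shSmndc1 against EV (lincRNAs 0 to 6 and 5 to 27), 127 to 3036 and 32 to 2795 in shSmndc1_RIP_neg against EV_RIP (2 to 16 and 0 to 32), 646 to 1811 and 612 to 1775 in shSmndc1_RIP_pos against EV_RIP (4 to 9 and 7 to 22), and 0 to 220 and 0 to 297 between the sorted groups (0 to 4 and 0 to 2, the most without shSmndc1_RIP_neg replicate 1). The difference of effects stayed at 0 to 0.

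Some log2 fold changes that missed the threshold in the comparison named changed sign. In shSmndc1 against EV, leaving out libraries gave 2900097C17Rik -0.2087 to 0.0532 and Malat1 -0.6500 to 0.8839. In shSmndc1_RIP_neg against EV_RIP it gave 2900097C17Rik -0.0680 to 0.1445 (-0.0125 with no filter) and Neat1 -0.3568 to 0.2441 (0.0345 without replicates 3 and 4). In shSmndc1_RIP_pos against EV_RIP it gave 2900097C17Rik -0.0334 to 0.1790, Neat1 -0.3046 to 0.2964, Oip5os1 -0.1036 to 0.0921 (0.0054 with DESeq2, 0.0100 with RLE, 0.0110 in the fit of 2 groups) and Pvt1 -0.0882 to 0.0703 (-0.0324 with no filter). Between the sorted groups Malat1 ran from -0.2997 to 0.0455, and Gm47283 was at 0.2254 without shSmndc1_RIP_neg replicates 3 and 4. Libraries of 8084574 counts or more gave each member at least 10 counts, so depth limits mainly the members near 5 CPM.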

Other observations

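Bc1, a short RNA of rodents made by RNA polymerase III and best known from neurons, had 19.7 to 108 CPM in the 12 libraries of the second experiment, against 0.958 to 3.29 CPM in the 6 of the first. It averaged 37.1 CPM in EV_RIP and 2.189 CPM in EV, a ratio of 16.9, and passed in no comparison within an experiment. The tables were normalized separately and the experiments differ in the reporter, with no day given for the second, so these values were not tested against each other. B020010K11Rik was likewise higher in every library of the second experiment (106 to 306 CPM, against 61.3 to 104 CPM). Gm46620 was lower in every library of the second (11.6 to 29.0 CPM, against 31.6 to 109 CPM), as were Gm4316 (2.98 to 6.76 CPM, against 7.06 to 14.96 CPM) and 4732487G21Rik (5.05 to 7.35 CPM, against 7.78 to 8.91 CPM). For the other 106 lincRNAs the ranges of the experiments overlapped.

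Gm47882, one of the abundant lincRNAs, had 83.5 to 115 CPM in shSmndc1, against 88.6 to 122 CPM in EV, and 99.3 to 121 CPM in shSmndc1_RIP_pos and 93.4 to 110.8 CPM in shSmndc1_RIP_neg, against 104 to 126 CPM in EV_RIP. Rps18-ps4 had 110 to 143 CPM in shSmndc1, against 140 to 150 CPM in EV, and 139 to 162 CPM in shSmndc1_RIP_pos and 136 to 154 CPM in shSmndc1_RIP_neg, against 148 to 221 CPM in EV_RIP. Of its exonic bases, 50.4% lie on the other strand of Rps18-ps6. Its symbol marks it as a copy of a ribosomal protein gene, so reads may be shared between near-identical copies. Gm10076, the member with the highest deposited FPKM in EV, averaged 353 FPKM in shSmndc1, against 350 FPKM in EV. It had 126 to 145 CPM in shSmndc1, against 132 to 139 CPM in EV, and 92.6 to 130.2 CPM in shSmndc1_RIP_pos and 81.5 to 94.4 CPM in shSmndc1_RIP_neg, against 87.1 to 132 CPM in EV_RIP.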
